A study of Bos taurus with 8 samples.

Results

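The cathepsins are the subject here: CTSA, CTSB, CTSC, CTSD, CTSH, CTSK, CTSL, CTSS, CTSV and CTSZ, chosen by their gene symbols. All 10 symbols matched 1 gene each among the 14970 genes of the deposited table, and all 10 passed the filter on low values. RNA was sequenced in 8 libraries from bovine outgrowths of trophectoderm, the outer cell layer of the blastocyst. The sample titles share 1 outgrowth number between the days, and whether those libraries came from the same outgrowth is not known. Each outgrowth grew from 1 embryo made in vitro, which was plated on collagen IV after hatching, on day 10, and was kept in trophectoderm growth medium. Libraries E to H were collected on day 41 (n = 4) and libraries A to D on day 35 (n = 4). Apart from the outgrowth numbers, the labels give no other difference between the days, and they name no batch. The letters follow the column order of the table, whose headers give the day and not the outgrowth. The cultures were not sorted, so each library holds whatever cell types its outgrowth held.

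Cathepsins are proteases that work mainly in the lysosome, the acidic compartment in which cells break down proteins. They are made as inactive precursors, are carried to the lysosome by the mannose 6-phosphate tag and its receptors, and are activated there by cleavage at low pH. Some are also secreted and can cut extracellular matrix, and cystatins hold the cysteine type in check. In sheep, cathepsins have been described in the uterus and the conceptus in early pregnancy. By catalytic type, 8 of the 10 members are cysteine peptidases, CTSD is an aspartic peptidase and CTSA is a serine carboxypeptidase. Of the cysteine type, CTSL, CTSV, CTSK and CTSS cut mainly inside proteins, and CTSB, CTSC, CTSH and CTSZ mainly trim ends.

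The labelled cell type was borne out by its markers. All 11 trophoblast markers examined were present in every library, with a summed level of 12927 to 17789.9 RPKM on day 41 and 17116 to 21901 RPKM on day 35. RPKM is reads per kilobase of exon, divided by the authors' scaled library size, so levels of different genes can be set side by side. The reads recovered from these values came to 119797973 to 158034430 per library on day 41 and 106402848 to 144658052 on day 35. Library A got the lowest weight, 0.128 against 0.683 to 4.00, when libraries were weighted by how closely they follow the others of their day. Library B had the highest sums of the stromal markers and of the hypoblast and yolk sac markers. The 10 stromal markers summed to 2.82 to 36.6 RPKM on day 41 and to 17.1 to 247 RPKM on day 35, with the 247 RPKM in library B. The 10 hypoblast and yolk sac markers measured summed to 14.7 to 156 RPKM on day 41 and to 22.3 to 464 RPKM on day 35, with the 464 RPKM again in library B and 4 of these genes at 0 in library A. In bulk RNA, fewer cells of a type and less RNA per cell cannot be told apart.

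Levels of the 10 genes spanned 3 orders of magnitude, and CTSD, CTSL and CTSB made up most of the total. Their summed RPKM was 86.2% to 93.7% of that of all 10 members on day 41 and 92.7% to 95.1% on day 35. Mean levels over the 8 libraries were 1864 RPKM for CTSD, 1364 RPKM for CTSL and 470.0 RPKM for CTSB, which placed these genes at ranks 27, 52 and 169 of all 14970 genes. CTSA and CTSZ followed at 137 and 108 RPKM. CTSH stood at 17.3 RPKM, CTSV at 13.7 RPKM, CTSK at 5.75 RPKM, CTSC at 5.41 RPKM and CTSS at 1.79 RPKM. The order of these means has 3 steps at which the ranges over the libraries did not overlap: between CTSL and CTSB, between CTSB and CTSA, and between CTSZ and CTSH. The ranges of all other neighbours overlapped. CTSD exceeded CTSL in 7 of 8 libraries, CTSA exceeded CTSZ in 6, CTSH exceeded CTSV in 6, and CTSK exceeded CTSC in 4, so the last pair has no fixed order. CTSC exceeded CTSS in all 8 although their ranges overlapped. The members together took 0.536% to 0.706% of the recovered reads on day 41 and 0.711% to 1.42% on day 35, with the 1.42% in library A.

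**Figure D1:**
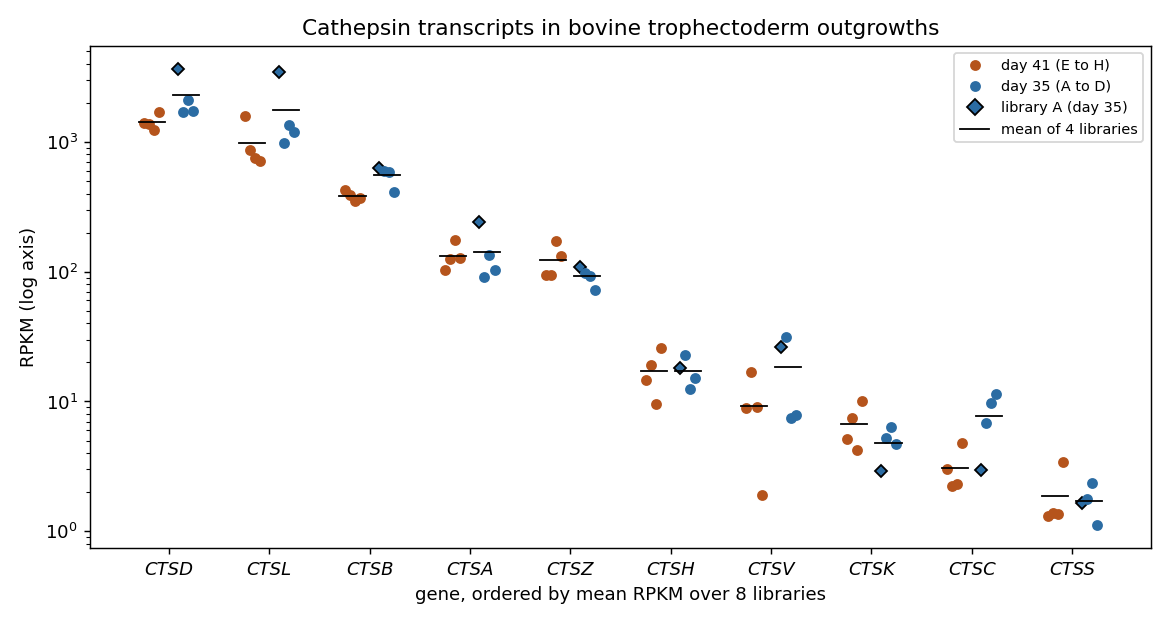
RPKM of each cathepsin gene in each library on a log axis, day 41 (orange, libraries E to H) left of day 35 (blue, libraries A to D), with the mean of 4 libraries as a bar and library A as a diamond. CTSD and CTSL lie at or above 708 RPKM in every library, CTSS at or below 3.41 RPKM, and library A is the highest point of CTSD, CTSL, CTSB and CTSA.

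Between the days, 0 of the 10 members passed the adjusted threshold of limma-trend, where 0.0477% of all 12582 genes tested did (0.0159% with lower values on day 41). With limma-voom on the recovered reads 0 members passed as well, and 0.0159% of all genes. At an unadjusted p under 0.05 there were 3 members, CTSB, CTSC and CTSD, all with lower values on day 41, against 11.7% of all genes in either direction and 5.82% with lower values. Of the 10, 7 had lower values on day 41, against 47.4% of all genes. The median log2 fold change of the members was -0.28, and that of all genes tested was 0.01. The 11 trophoblast markers had a median of -0.26, with 9 lower values and 0 calls. Whether the members' values moved with these markers was not tested. In no member did the libraries of the days separate fully, which 8.2% of all genes did. Libraries were also weighted by how closely they follow the others of their day (array weights). With these weights limma-trend called 2 members lower on day 41, CTSB and CTSC, and 8.3% of all genes (3.59% lower). That fit leans on library E, with a weight of 4.00, far more than on library A. Elsewhere, adjusted p and counts of genes that passed are those of limma-trend without weights, unless weights are named. In the authors' deposited table, 1 member, CTSC, has an FDR under 0.05, against 1.76% of its genes (1.08% lower). Fold changes here are on the log2(RPKM + 1) scale, day 41 over day 35, which understates changes of low genes.

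CTSD (ENSBTAG00000007622, chromosome 29, 49712700 to 49722179, plus strand, ARS-UCD1.2), the main aspartic protease of lysosomes, was the most abundant member. It had 1401, 1372, 1235 and 1706 RPKM in day 41 libraries E, F, G and H, against 3661, 1703, 2099 and 1736 RPKM in day 35 libraries A, B, C and D. Library A stood far above the rest, and the days overlapped only in that H lay just above B. The means were 1428 ± 199 RPKM on day 41 and 2299.8 ± 925 RPKM on day 35 (SD, n = 4 each). The log2 fold change was -0.62 (SE 0.26, 95% interval -1.21 to -0.04, unadjusted p = 0.0397, limma-trend adjusted p = 0.404). Without library A it was -0.37, with an adjusted p of 0.189.

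CTSL (ENSBTAG00000000720, chromosome 8, 80974612 to 80980412, plus strand), a strong endopeptidase of the lysosome, varied more. It had 1587, 869.9, 756 and 708 RPKM in day 41 libraries E to H, against 3456.5, 977, 1359.5 and 1199 RPKM in day 35 libraries A to D. Library A was far above the other day 35 libraries, and library E stood above B, C and D, so the days overlapped. The means were 980.2 ± 410.4 RPKM on day 41 and 1748 ± 1149.8 RPKM on day 35 (SD, n = 4 each). The log2 fold change was -0.72 (SE 0.41, 95% interval -1.67 to 0.22, adjusted p = 0.539). It was -0.33 without library A and -0.05 with array weights. Library E was the only one in which CTSL exceeded CTSD, with a CTSL to CTSD ratio of 1.13, against 0.415 to 0.634 in the other day 41 libraries and 0.573 to 0.944 on day 35.

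CTSV (ENSBTAG00000017077, chromosome 8, 83553382 to 83558696, minus strand) is a close relative of CTSL, known in humans from thymus and testis. Both genes lie on chromosome 8, with a gap of 2573 kilobases that holds 15 other genes of the table. CTSV had 8.94, 16.9, 9.04 and 1.91 RPKM in libraries E to H of day 41, against 26.4, 31.6, 7.43 and 7.81 RPKM in libraries A to D of day 35. Its levels split within each day, high in A, B and F and very low in H, and the days overlapped. No other member varied as much: its highest library had 16.5 times the level of its lowest, and 98.9% of all genes tested had a smaller SD of log2(RPKM + 1) over the 8 libraries. The log2 fold change was -0.92 (SE 0.63, 95% interval -2.36 to 0.53, adjusted p = 0.618). It was -0.40 without library H, -0.58 without library B and -0.02 without libraries A and B. CTSV did not follow CTSL: the CTSV to CTSL ratio ran from 0.00270 to 0.0194 on day 41 and from 0.00547 to 0.0324 on day 35. Reads shared between the related CTSL and CTSV genes may have been split by a rule that is not given in the sources used here, and the RefSeq gene table lists CTSL among the older names of CTSV. Library B also had the highest stromal and yolk sac sums given above. In library A, with 26.4 RPKM of CTSV, those sums were 26.4 and 22.3 RPKM. Whether other cell types contributed to CTSV was not tested.

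CTSK (ENSBTAG00000021035, chromosome 3, 19953196 to 19966177, plus strand), the collagen-cutting cathepsin of osteoclasts, and CTSS (ENSBTAG00000017135, chromosome 3, 19981529 to 20004455, plus strand), which trims the invariant chain in antigen-presenting cells, are neighbours. Their gap is 15.4 kilobases, and no other gene of the table lies in it. CTSK had 5.17, 7.40, 4.24 and 10.0 RPKM in day 41 libraries E to H, against 2.91, 5.20, 6.32 and 4.73 RPKM in day 35 libraries A to D. Library H was highest and library A lowest, with overlap between the days (log2 fold change 0.39, SE 0.27, 95% interval -0.22 to 1.00, adjusted p = 0.615). Without library H it was 0.20, and without library A 0.21. CTSS was the least abundant member, at 1.301, 1.38, 1.36 and 3.41 RPKM in E to H of day 41, against 1.65, 1.77, 2.37 and 1.11 RPKM in A to D of day 35. Only library H stood out, and the days overlapped (log2 fold change 0.03, 95% interval -0.51 to 0.57, adjusted p = 0.978). CTSK exceeded CTSS in every library, by ratios of 2.94 to 5.38 on day 41 and 1.76 to 4.26 on day 35.

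Of the macrophage and leukocyte list, 5 of 10 genes were measured and the others were not analysed here. Their sum was 232 to 290.1 RPKM on day 41 and 184 to 285 RPKM on day 35, with none at 0. AIF1 made up most of it, at 239.6 ± 26.4 RPKM in day 41 libraries and 231 ± 44.4 RPKM in day 35 libraries (SD, n = 4 each). CD14 followed at 13.1 ± 1.63 and 8.58 ± 0.699 RPKM, and CD68 at 1.85 ± 0.0960 and 1.99 ± 0.171 RPKM, in the same order of days. The remaining genes of the list, CSF1R and CD74, averaged 0.336 and 0.338 RPKM over the 8 libraries and were under the filter. CD14 exceeded both CTSK and CTSS in mean level. Its day 41 libraries all lay above day 35, with an adjusted p of 0.179 and, with array weights, of 0.0395, and its FDR in the authors' deposited table is 0.0399. Library H, highest in CTSS, had the lowest sum of day 41, 232 RPKM, of which 216 RPKM was AIF1. CD74 was highest of day 41 in that library, at 0.137 RPKM, and CD14, CD68 and CSF1R lay between their day 41 extremes. Of the osteoclast list 2 of 5 genes were measured, with sums of 1.24 to 2.95 RPKM on day 41 and 0.671 to 2.68 RPKM on day 35, nearly all of it ACP5. The part of such cells in CTSK or CTSS was not tested.

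CTSB (ENSBTAG00000012442, chromosome 8, 7566095 to 7586862, plus strand), an abundant lysosomal protease that trims dipeptides from the carboxyl end of proteins, varied least over the libraries by its ratio of highest to lowest, which was 1.81. It had 425, 391, 349.5 and 369 RPKM in day 41 libraries E to H, against 632, 595, 591 and 408 RPKM in day 35 libraries A to D. Libraries A, B and C lay above all of day 41, and only D, below E, made the days overlap. The means were 384 ± 32.4 RPKM on day 41 and 556 ± 100.46 RPKM on day 35 (SD, n = 4 each). CTSB had the smallest p among the members, with a log2 fold change of -0.52 (SE 0.15, 95% interval -0.87 to -0.17, unadjusted p = 0.00849, limma-trend adjusted p = 0.267). Leaving out any 1 library gave -0.66 to -0.45, with adjusted p from 0.160 to 0.542. In the authors' deposited table CTSB has a log2 fold change of -0.56 and an FDR of 0.0510.

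CTSC (ENSBTAG00000011100, chromosome 29, 7375472 to 7417234, plus strand), a dipeptidyl peptidase that activates the granule proteases of immune cells, showed the largest difference in size. It had 3.00, 2.25, 2.32 and 4.75 RPKM in day 41 libraries E to H, against 2.98, 6.87, 9.74 and 11.4 RPKM in day 35 libraries A to D. Libraries B, C and D lay above all of day 41, while A lay among the day 41 values. The means were 3.08 ± 1.16 RPKM on day 41 and 7.74 ± 3.67 RPKM on day 35 (SD, n = 4 each), a ratio of 0.398. The log2 fold change was -1.02 (SE 0.35, 95% interval -1.82 to -0.22, unadjusted p = 0.0182, limma-trend adjusted p = 0.331). With a pseudocount of 0.1 it was -1.21. Without library A it was -1.35, with an adjusted p of 0.0615, and 0.344% of all genes were called in that fit. In the authors' deposited table CTSC has a log2 fold change of -1.48 and an FDR of 0.00227. So the call depends on the test, and on which libraries carry weight. Library A, the low one of day 35, was the highest of all 8 in CTSD, CTSL, CTSB and CTSA.

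The remaining exopeptidases showed smaller differences. CTSZ (ENSBTAG00000018784, chromosome 13, 57379569 to 57390707, plus strand), a carboxypeptidase that removes single residues, had 93.6, 94.0, 172 and 132 RPKM in day 41 libraries E to H, against 108, 97.9, 92.5 and 72.1 RPKM in day 35 libraries A to D. Libraries G and H stood above all of day 35, and E and F lay within it. CTSZ had a log2 fold change of 0.37 (SE 0.21, 95% interval -0.11 to 0.86, adjusted p = 0.539), and of 0.19 without library G. CTSH (ENSBTAG00000010992, chromosome 21, 25201460 to 25222224, minus strand), an aminopeptidase, had 14.6, 19.2, 9.51 and 25.9 RPKM in libraries E to H of day 41, against 18.2, 22.9, 12.4 and 15.3 RPKM in libraries A to D of day 35. The extremes, G and H, were both of day 41, and its range enclosed that of day 35. The log2 fold change of CTSH was -0.04 (SE 0.29, 95% interval -0.70 to 0.62, adjusted p = 0.974).

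**Figure D2:**
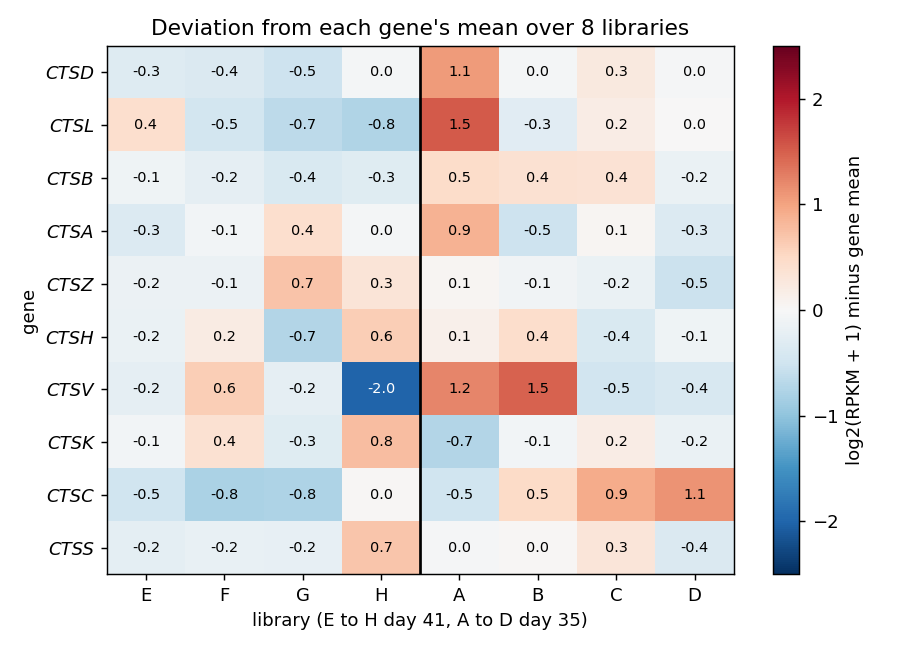
Each cell gives log2(RPKM + 1) of a cathepsin in a library minus the mean of that gene over the 8 libraries, with day 41 (E to H) left of the line and day 35 (A to D) right of it; red is above the mean and blue below. Library A is red for CTSD, CTSL, CTSB, CTSA and CTSV and blue for CTSK and CTSC, and library H holds the lowest CTSV.

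CTSA (ENSBTAG00000027337, chromosome 13, 74649200 to 74655766, plus strand) protects beta-galactosidase (GLB1) and neuraminidase (NEU1) in a lysosomal complex, beside its own carboxypeptidase activity. It had 102, 124, 175 and 126 RPKM in day 41 libraries E to H, against 240.05, 90.5, 135 and 103 RPKM in day 35 libraries A to D. Library A was again the highest and the days overlapped (log2 fold change -0.03, SE 0.30, 95% interval -0.70 to 0.65, adjusted p = 0.986). Without library A the sign turned, to 0.26. GLB1 averaged 75.3 ± 9.58 RPKM on day 41 and 77.0 ± 22.9 RPKM on day 35 (SD, n = 4 each), also with its highest value, 109 RPKM, in library A. NEU1 had 27.2, 28.8, 35.8 and 27.0 RPKM in libraries E to H of day 41, against 47.0, 39.1, 38.6 and 41.1 RPKM in libraries A to D of day 35. All 4 day 41 libraries lay below all of day 35, but NEU1 did not pass the threshold (log2 fold change -0.47, SE 0.11, adjusted p = 0.214). With array weights it did (adjusted p = 0.0183).

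**Figure D3:**
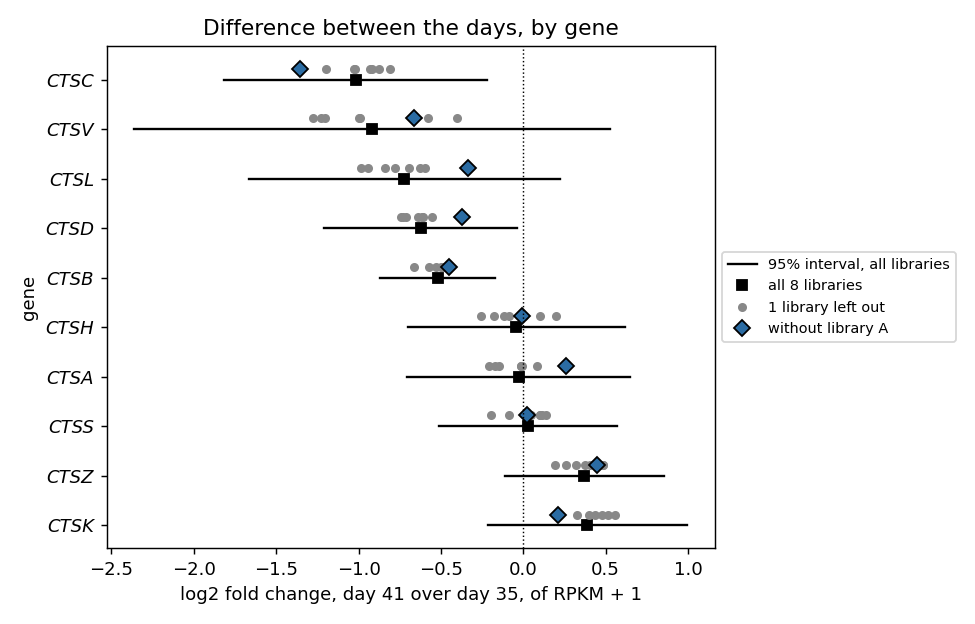
Log2 fold change of RPKM + 1, day 41 over day 35, of each cathepsin (square) with its 95% interval from limma-trend (line), and the values with 1 library left out (grey points; diamond, without library A). The intervals of CTSC, CTSD and CTSB lie below 0 before adjustment for multiple tests, and leaving out library A moves CTSC to -1.35 and CTSL to -0.33.

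Other cathepsin genes were lower in level than most members. CTSF, a cysteine cathepsin, had 10.99, 11.1, 17.9 and 13.5 RPKM in day 41 libraries E to H, against 24.5, 11.8, 12.6 and 12.2 RPKM in day 35 libraries A to D, with library A again highest. CTSO had 1.25, 1.26, 1.76 and 0.956 RPKM in E to H of day 41, against 1.64, 2.05, 1.75 and 2.64 RPKM in A to D of day 35 (log2 fold change -0.39, SE 0.15, adjusted p = 0.367). NAPSA, an aspartic protease related to CTSD, lay at 0.139 ± 0.0642 RPKM in day 41 libraries and 0.103 ± 0.0352 RPKM in day 35 libraries (SD, n = 4 each), below the filter. CTSE, CTSG and CTSW were not analysed here.

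Cystatins ranged from abundant to low: CSTA averaged 2.02 RPKM and CST7 0.269 RPKM over the 8 libraries, with CST7 below the filter. The list of protease inhibitors also holds SERPINB1, SERPINB6, SERPINB9, SPINT1 and SPINT2, which are not cystatins. Of this list, 10 gene entries were tested, 0 passed, and 6 had lower and 4 higher values on day 41. The median log2 fold change was -0.18. The 4 higher ones were SERPINB1, SERPINB6, SERPINB9 and SPINT1, and all tested cystatin entries had lower values. CSTB, the cytosolic cystatin B, appears as a pair of gene entries that may share reads, so their separate values are uncertain. The entry ENSBTAG00000018189 had 512 ± 157 RPKM on day 41 and 695 ± 189 RPKM on day 35, and ENSBTAG00000000524 had 472 ± 19.9 and 711 ± 263 RPKM in the same order (SD, n = 4 each). For the second entry, the day 41 libraries had 486, 445, 488 and 468 RPKM, against 1093, 639.9, 622 and 491 RPKM on day 35, so the days did not overlap (adjusted p = 0.408). CST3, the secreted cystatin C, averaged 298 ± 102 RPKM in day 41 libraries and 337 ± 121 RPKM in day 35 libraries, and CST6, cystatin M, 59.3 ± 13.4 and 104 ± 72.4 RPKM. The highest value lay in library A for both CSTB entries, for CST3 at 516 RPKM and for CST6 at 208 RPKM, as it did for CTSD, CTSL, CTSB and CTSA.

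Among other peptidases of the lysosome, 6 were tested and 0 passed, and 5 had higher values on day 41 (median log2 fold change 0.18). LGMN, legumain, which cuts cathepsin precursors, averaged 84.1 ± 8.35 RPKM in day 41 libraries and 70.9 ± 17.8 RPKM in day 35 libraries (adjusted p = 0.559). With array weights LGMN passed, higher on day 41 (log2 fold change 0.52, adjusted p = 0.0239), and without library A its log2 fold change was 0.43, against 0.27 with all libraries. SCPEP1, a serine carboxypeptidase, was at 135 ± 18.5 and 98.5 ± 45.3 RPKM, and CPQ at 10.3 ± 1.15 and 8.23 ± 2.31 RPKM, in the same order. Of 10 genes that tag and sort lysosomal enzymes, 0 passed, with 5 higher and 5 lower. LRP1, an endocytic receptor, averaged 43.0 ± 4.39 RPKM on day 41 and 25.3 ± 11.1 RPKM on day 35 without overlap (adjusted p = 0.335), and NAGPA, which uncovers the mannose 6-phosphate tag, at 9.31 ± 0.753 and 11.1 ± 0.635 RPKM (adjusted p = 0.380). PSAP, the precursor of saposins, was the most abundant of that list, at 403 RPKM over all libraries, and M6PR, the cation-dependent mannose 6-phosphate receptor, stood at 43.3 RPKM.

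Of 26 other lysosomal hydrolases tested, 0 passed without weights, 18 had lower and 8 higher values on day 41, with a median log2 fold change of -0.08, and 7 had an unadjusted p under 0.05 (26.9%, against 11.7% of all genes). GLA, alpha-galactosidase, had 64.8, 89.3, 71.8 and 60.8 RPKM in day 41 libraries E to H, against 41.7, 30.2, 32.1 and 56.7 RPKM in day 35 libraries A to D. All 4 of day 41 lay above day 35 (log2 fold change 0.85, SE 0.21, limma-trend adjusted p = 0.218), and the FDR in the authors' deposited table is 0.000688. ARSA, arylsulfatase A, had 13.9, 9.80, 9.87 and 9.49 RPKM in E to H of day 41, against 18.8, 15.8, 21.4 and 16.7 RPKM in A to D of day 35, all 4 of day 41 below day 35 (log2 fold change -0.71, SE 0.14, adjusted p = 0.179; the FDR in the authors' deposited table is 0.0112). With array weights GLA passed, higher on day 41 (adjusted p = 0.0236), and so did GAA, lower (log2 fold change -0.66, adjusted p = 0.0136). GAA, acid alpha-glucosidase, was low, at 1.54 ± 0.239 RPKM in day 41 libraries and 2.51 ± 0.460 RPKM in day 35 libraries (SD, n = 4 each).

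Lysosomal membrane and lumenal carrier genes were mixed, with 0 of 14 passing, 8 lower and 6 higher on day 41, and 6 at an unadjusted p under 0.05, 3 in each direction (42.9%, against 11.7% of all genes). NPC2, which carries cholesterol in the lysosome, had 272, 288, 106 and 255 RPKM in libraries E to H of day 41, against 323, 502, 302 and 617 RPKM in libraries A to D of day 35. LAMP1, a major membrane glycoprotein, had 187, 179, 126 and 175 RPKM in E to H of day 41, against 310.4, 248, 217 and 194 RPKM in A to D of day 35. Both separated the days, with adjusted p of 0.362 for NPC2 and 0.326 for LAMP1. SCARB2, the receptor that brings glucocerebrosidase to lysosomes, separated them the other way, at 168 ± 9.82 RPKM in day 41 libraries and 133 ± 15.5 RPKM in day 35 libraries (adjusted p = 0.286, and 0.0336 with array weights).

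Of 14 proton pump genes tested, which acidify the lysosome, 0 passed, 10 had lower and 4 higher values on day 41 (median log2 fold change -0.14). ATP6V0D1 averaged 106 ± 8.10 RPKM on day 41 and 135 ± 18.6 RPKM on day 35 without overlap (adjusted p = 0.322). Among 14 regulators of lysosome genes, 0 passed, with 7 higher and 7 lower. MITF, a relative of the lysosomal regulators TFEB and TFE3, had the smallest p of all genes on these lists, with 2.34, 2.54, 3.21 and 2.58 RPKM in day 41 libraries E to H, against 1.10, 1.27, 1.303 and 1.64 RPKM in day 35 libraries A to D (log2 fold change 0.66, SE 0.12, adjusted p = 0.149, and 0.0150 with array weights). TFEB averaged 6.64 ± 1.55 RPKM in day 41 libraries and 6.28 ± 1.65 RPKM in day 35 libraries, and TFE3 23.7 ± 3.23 and 22.3 ± 2.75 RPKM. Both were named for their role, not by the naming rule.

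**Figure D4:**
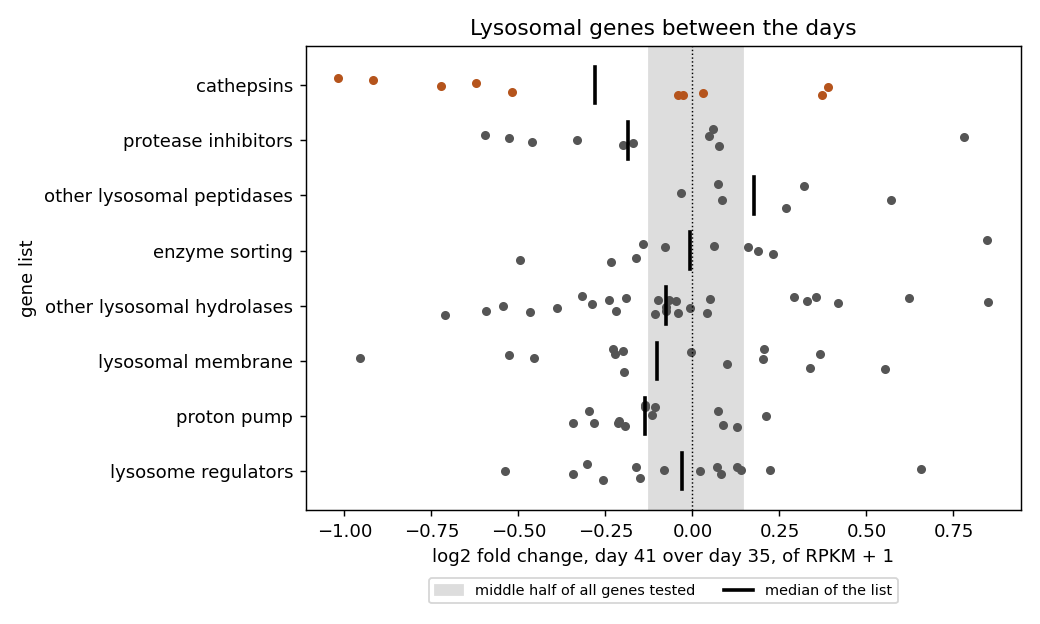
Log2 fold change of RPKM + 1, day 41 over day 35, of each tested gene (points). Shown are the cathepsins (orange) and 7 lists of protease inhibitors and other lysosomal genes (grey). The bar is the median of each list, and the band is the interquartile range of all 12582 genes tested, -0.12 to 0.15. The median of the cathepsins is -0.28 and that of the other lysosomal peptidases 0.18.

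CTSV and CTSC had the largest SD of log2(RPKM + 1) over the 8 libraries among the members, and the genes with the most similar pattern were looked up for both. Over 8 libraries and 12572 other genes, the highest Pearson correlations with CTSV were those of PPP1R8 (0.98), MRPS2 (0.97) and AK1 (0.95). PPP1R8 spanned 10.4 to 13.1 RPKM, MRPS2 20.4 to 31.1 RPKM and AK1 2.33 to 6.06 RPKM, so all of them varied far less than CTSV. CTSC was followed most closely by ENSBTAG00000040257, which has no symbol (0.99), MXD1 (0.97) and OGA (0.97). MXD1 had 6.87, 6.17, 5.57 and 8.48 RPKM in day 41 libraries E to H, against 6.19, 13.8, 17.5 and 15.02 RPKM in day 35 libraries A to D, with library A low as for CTSC. These correlations are the highest of many and describe these libraries only.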

How the data were processed

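The deposited table holds RPKM computed by the authors for each library, with exon lengths, symbols and coordinates on ARS-UCD1.2. The authors' comparison of the days was deposited in it too, as log2 fold changes, mean log2 CPM, a likelihood ratio score, p-values and FDR. FastQC, HISAT2, featureCounts and edgeR are named without versions, per the submitters' processing notes. Of 14970 genes, 2035 have no symbol.

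Multiplied by exon length, RPKM fell on multiples of a fixed step in each library (100% of values whole within 0.01), which gave back the read numbers. The main test was limma-trend (limma 3.58.1, R 4.3.3) on log2(RPKM + 1), two-sided with no covariate, over 12582 genes at or above 0.5 RPKM in at least 4 libraries. P-values were adjusted by Benjamini and Hochberg, threshold 0.05. The test was checked on simulated data in which all genes and libraries had the same spread beyond read sampling. That check does not cover libraries that differ in weight, as these do. A quasi-likelihood count test, planned for counts, was not used because the table holds RPKM. The members, lists and alternatives were chosen with earlier results of these data known. Besides the members and other cathepsins, the text names from each list genes past the threshold, up to 3 with the smallest p and up to 2 of the most abundant, marker genes by level, and the 3 genes most like each of the 2 most variable members. Some of these were left out for length. No sequences are printed.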

Additional observations from a re-analysis of the deposited data

Results flagged for a closer look

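Libraries that stood far from the other 3 of their day were looked for in every gene named by rule, with Dixon's ratio of the gap to the whole range, against its 95% critical value for 4 samples. Of 130 groups, 16 passed. Chance gives about 1 in 20 for independent groups of normal values, but these are RPKM without logs from the same 8 libraries. So the 16 cannot be judged against that rate. Library A held 6 of the 16. In library A of day 35, CTSL had 3456.5 RPKM, with B to D at 977 to 1359.5 RPKM (ratio 0.846), and CTSF 24.5 RPKM against 11.8 to 12.6 RPKM (ratio 0.933). In the same library LGMN had 97.3 RPKM (0.839), ATP6V0B 282 RPKM (0.858) and RRAGA 47.5 RPKM (0.853), each the highest, and GAA 1.83 RPKM (0.898), the lowest.

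In library H of day 41, CTSS had 3.41 RPKM, with E to G at 1.301 to 1.38 RPKM (ratio 0.965), and CSTA, cystatin A, 2.54 RPKM against 1.36 to 1.39 RPKM (ratio 0.979). ARSA was highest in library E of day 41, at 13.9 RPKM (0.914), and NAPSA lowest in library C of day 35, at 0.0508 RPKM (0.87). Markers of other cell types were high in single libraries: in library B of day 35, VIM at 86.4 RPKM (0.888), COL1A1 at 76.4 RPKM (0.953), COL1A2 at 31.1 RPKM (0.938) and AFP at 95.4 RPKM (0.94), and in library F of day 41, COL1A1 at 13.6 RPKM (0.968) and COL1A2 at 3.73 RPKM (0.907).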

How the results depend on the processing

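Genes called over the whole table numbered 6, but 3 with a pseudocount of 0.1, with no filter and with at least 1 RPKM in all 8 libraries, 2 with limma-voom on the recovered reads, 1044 with array weights and 1 without libraries A and B, a setting chosen after seeing the data. Leaving out 1 library gave 0 to 43, with 43 without A and 0 without B, C, D, E or F (1030 to 1693 genes at an unadjusted p under 0.05). The cathepsins called numbered 0 under every setting, with 1 to 3 members at an unadjusted p under 0.05, except 2 with array weights. Leaving out 1 library kept 8 to 10 members at their place in the order of levels. Among the cathepsins and the list genes named for their p, 5 had a log2 fold change that changed sign. With 1 library left out, CTSA ranged from -0.21 to 0.26 (positive without A or E), CTSH from -0.25 to 0.20 (positive without B, E or G), CTSS from -0.20 to 0.14 (negative without D or H), CTSF from -0.28 to 0.10 (positive without A) and GLB1 from -0.13 to 0.18 (negative without C, D, E or G). Array weights gave 0.031 for CTSH and -0.19 for CTSS, median-of-ratios factors gave -0.0059 for GLB1, and leaving out both A and B gave 0.13 for CTSA, 0.23 for CTSH and 0.073 for CTSF. These 5 lay near 0 with all libraries, and the cause was not tested. Genes named only by their level were not counted there. Of these, ATP6V0B (-0.33 to 0.018), CD63 (-0.33 to 0.018), ATP6V0E1 (-0.26 to 0.042) and PLA2G15 (-0.13 to 0.032) also changed sign with 1 library left out. So did M6PR and the markers AFP, AIF1, APOA1, COL1A1 and SSLP1. Neither edgeR nor DESeq2 was run on recovered reads, and limma-voom was the only count method used on them. No paired analysis was possible because the days share only 1 outgrowth number and the columns carry none. With 4 libraries a day, limma-trend without weights called neither CTSC nor CTSL. For CTSC the unadjusted p was 0.0182, and only after adjustment over all genes tested did it miss the threshold (adjusted p = 0.331). For CTSL the unadjusted p was 0.116 (adjusted p = 0.539), so its difference was not told from the spread between libraries even before adjustment.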

Other observations

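AIF1, known as a macrophage marker, averaged 239.6 ± 26.4 RPKM in day 41 libraries and 231 ± 44.4 RPKM in day 35 libraries (SD, n = 4 each). CSF1R, of the same marker list, lay at 0.522 ± 0.398 and 0.149 ± 0.119 RPKM, in the same order. Whether macrophages contributed to either level was not tested. DPP7, a lysosomal dipeptidase under the filter of the test, had 0.264, 0.287, 0.363 and 0.260 RPKM in day 41 libraries E to H, against 0.488, 0.867, 0.689 and 0.661 RPKM in day 35 libraries A to D, so the days did not overlap. These observations were picked after their values were seen.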
